A study of Mus musculus with 9 samples.

Results

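Potassium channel subunits were defined here as the protein-coding genes of the read count table whose symbol begins with Kcn, continues with at least 1 lower-case letter and then has a digit. The rule found 93 of 56748 genes in the table. A filter on low counts left 80 of these among 17575 tested genes, and the other 13 are given by their counts near the end. Symbols were the only basis of the choice, so no measured value entered it. Total RNA was sequenced from brains of 7-month-old mice from which the cerebellum had been removed. There were 3 genotypes with 3 libraries each, titled as 9 separate mice. 5xFAD mice, a model of amyloid deposition, carry mutant human transgenes driven by the neuronal Thy1 promoter. 5xFAD/Cd5l tg/wt mice have the same amyloid transgenes and a mouse Cd5l transgene driven by the PDGF-B promoter of human origin, so a Cd5l transgene without the amyloid transgenes was not among the groups. CD5L is a secreted scavenger-receptor protein of macrophages. The sources used here give no strain or sex. No litter or batch is labelled either, so p-values measure the spread between these mice.

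Potassium channels let potassium leave the cell along its gradient, and in neurons they set the resting potential, end the action potential and limit firing. Voltage-gated Kv channels open on depolarization, and their pore subunits can be joined by cytoplasmic or membrane partners such as the Kv beta subunits, the KChIP calcium-binding proteins and the KCNE peptides. Inward rectifiers (Kir) carry current near rest, among them the G-protein-gated channels that receptors for GABA, acetylcholine and other transmitters open, and the astrocyte channel that takes up extracellular potassium. K2P channels, whose subunits carry a pair of pore domains, give the background leak, and a further group opens on intracellular calcium or sodium.

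The libraries held 14575416 to 17865150 counts each. Cd5l had 2553, 2822 and 3551 counts in libraries 1, 2 and 3 of 5xFAD/Cd5l tg/wt and at most 1 count in any other library. Values below are CPM, the usual read counts scaled to a common library size, given as mean ± SD with n = 3 in the order wild-type, 5xFAD, 5xFAD/Cd5l tg/wt, and log2 fold changes ± SE from edgeR's quasi-likelihood test over all 9 libraries. A gene passed where its p, adjusted by Benjamini-Hochberg across all tested genes, was under 0.05. All 10 neuronal marker genes were tested and their summed level was 7921 to 8722 CPM in the 9 libraries. None passed, but single markers were less even than the sum. In 5xFAD/Cd5l tg/wt against 5xFAD, 4 of 10 had an unadjusted p under 0.05 (3914 of 17575 tested genes), with log2 fold changes of -0.49 to 0.21. Gad2 was at 196 and 194 CPM in 5xFAD/Cd5l tg/wt libraries 2 and 3, and at 292 to 330 CPM elsewhere. Sets of other marker genes differed between the genotypes or between single libraries. The 10 nuclear-retained RNAs listed, Malat1 and Meg3 among them, summed to 4263 to 5418 CPM in wild-type, 1971 to 2368 CPM in 5xFAD and 4530 to 6541 CPM in 5xFAD/Cd5l tg/wt libraries. The 15 endothelial and mural markers, Cldn5 and Pdgfrb among them, summed to 392.05 to 437 CPM in wild-type, 272 to 324 CPM in 5xFAD and 438 to 477 CPM in 5xFAD/Cd5l tg/wt libraries. Microglial markers summed to 377 to 422 CPM in wild-type, 743 to 953 CPM in 5xFAD and 880 to 1021 CPM in 5xFAD/Cd5l tg/wt libraries. Cerebellar and hindbrain markers summed to 1561 CPM in wild-type library 3 and to 271 to 417 CPM in the other libraries. Hypothalamic markers summed to 4.92 and 7.45 CPM in 5xFAD/Cd5l tg/wt libraries 2 and 3 and to 55.2 to 95.3 CPM elsewhere. These 3 libraries, wild-type 3 and 5xFAD/Cd5l tg/wt 2 and 3, are called the regionally distinct libraries below. A fit without them leaves library 1 alone in the last genotype, which is then assumed to vary like the other libraries. That library itself had the lowest sum of striatal markers (758 CPM, against 950 to 1538 CPM elsewhere). It was also lowest in choroid plexus markers (357 CPM, against 451 to 859 CPM elsewhere). Such a fit is thus not free of differences in regional markers. Because the tissue was whole, fewer cells of a type and less RNA per cell cannot be told apart.

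Members beyond those that passed, the 10 highest per kilobase and the 2 with the smallest p in each role group were named after their values were seen. Per kilobase of gene, the potassium channel subunit with the highest level was Kcnab2, a Kv beta subunit that binds the cytoplasmic side of Kv1 channels, at 67.5 CPM per kilobase (mean of 9 libraries, range 63.9 to 71.3). Kcnj4, an inward rectifier of forebrain neurons, followed at 51.4 (range 38.5 to 62.7), and Kcnj10, the potassium-buffering channel of astrocytes, at 44.2 (range 32.4 to 55.6). These ranges of Kcnj4 and Kcnj10 overlap, and so do those of most neighbours further down the order. Kcnk1, a K2P leak channel, stood at 39.3, Kcnip2 and Kcnip3, which bind Kv4 channels, at 36.1 and 31.8, and Kcnj9 and Kcnj3, subunits of the G-protein-gated channel, at 32.8 and 27.2. Kcnf1, a silent subunit that only acts together with Kv2 subunits, was at 27.0. Not scaled for length, the mean levels of the 80 tested subunits ran from 0.503 to 470.9 CPM with a median of 32.3 CPM. Of these, 23 were above 100 CPM and 22 were below 10 CPM.

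**Figure D1:**
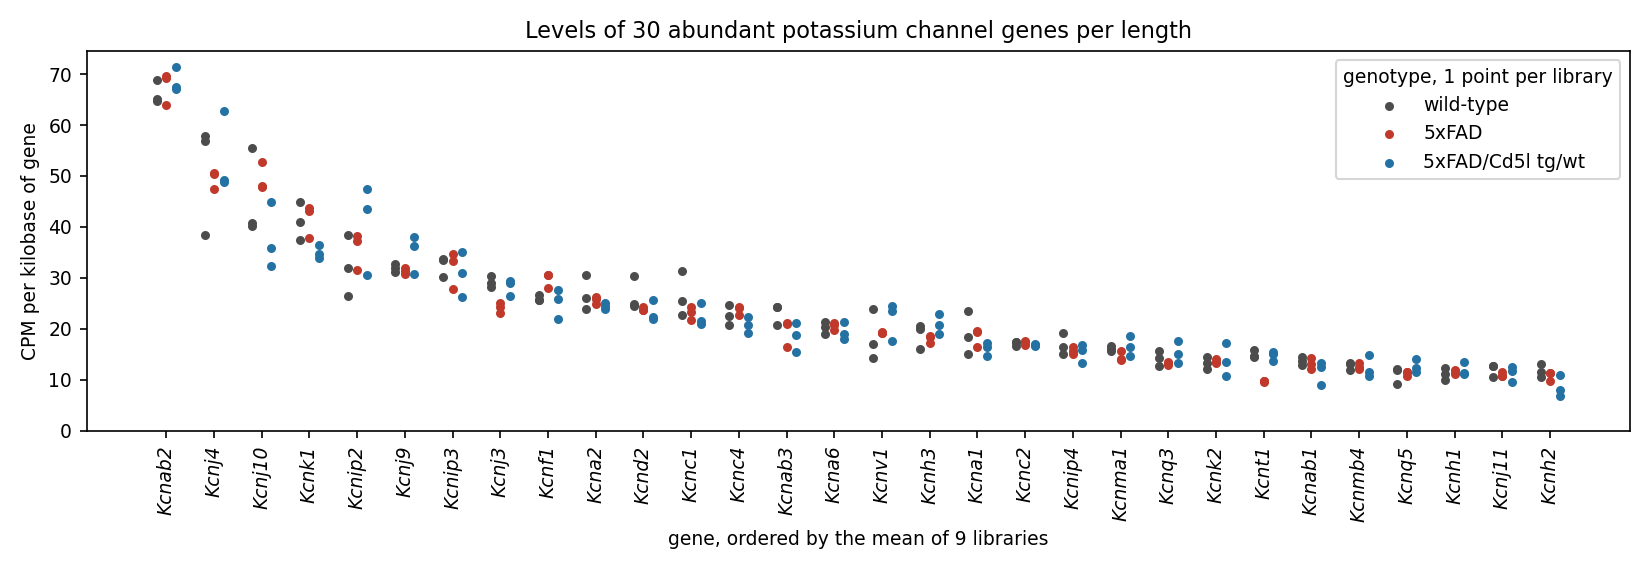
Level of 30 potassium channel genes with a high mean, as CPM per kilobase of gene (y axis, linear), with genes on the x axis in descending order and 1 point per library coloured by genotype. Kcnab2 lies at 63.9 to 71.3 in all libraries, and the 5xFAD points of Kcnt1 lie below those of the other genotypes.

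Few potassium channel subunits passed in any comparison. In 5xFAD against wild-type mice 3 of 80 fell (Kcnt1, Kcnk9 and Kcnj3) and 0 rose, which is 3.75%, where 3.5% of all tested genes passed (1.06% rose and 2.44% fell). The unadjusted p was under 0.05 for 10 of 80 subunits and for 2861 of 17575 tested genes. The median log2 fold change of the subunits was -0.04, against -0.01 for all tested genes. In 5xFAD/Cd5l tg/wt against 5xFAD mice 2 of 80 rose (Kcnt1 and Kcnk9) and 0 fell, or 2.5%. Of all tested genes 6.23% passed (5.34% rose and 0.888% fell). Here 20 of 80 subunits had an unadjusted p under 0.05, beside 3914 of 17575 tested genes. The median was -0.03, against 0.01. In 5xFAD/Cd5l tg/wt against wild-type mice 1 of 80 fell (Kcnk3) and 0 rose, or 1.25%. Of all tested genes 1.58% passed (1.38% rose and 0.199% fell). Here 14 of 80 subunits had an unadjusted p under 0.05, beside 2177 of 17575 tested genes. The median was -0.04, against 0.00 for all tested genes. The share of subunits that passed was thus near or below that of all genes in each comparison. In the first comparison, libraries of the compared genotypes did not overlap for 6 subunits that were higher and 7 that were lower in 5xFAD, where 10.4% and 13.9% of all tested genes did so (24.3% in all). In the second these counts were 9 higher and 8 lower (16.6% and 12.1% of all tested genes, 28.7% in all). In the third they were 3 higher and 6 lower (7.93% and 6.53%, 14.5% in all). The 3 comparisons share libraries, so they are not independent of each other.

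**Figure D2:**
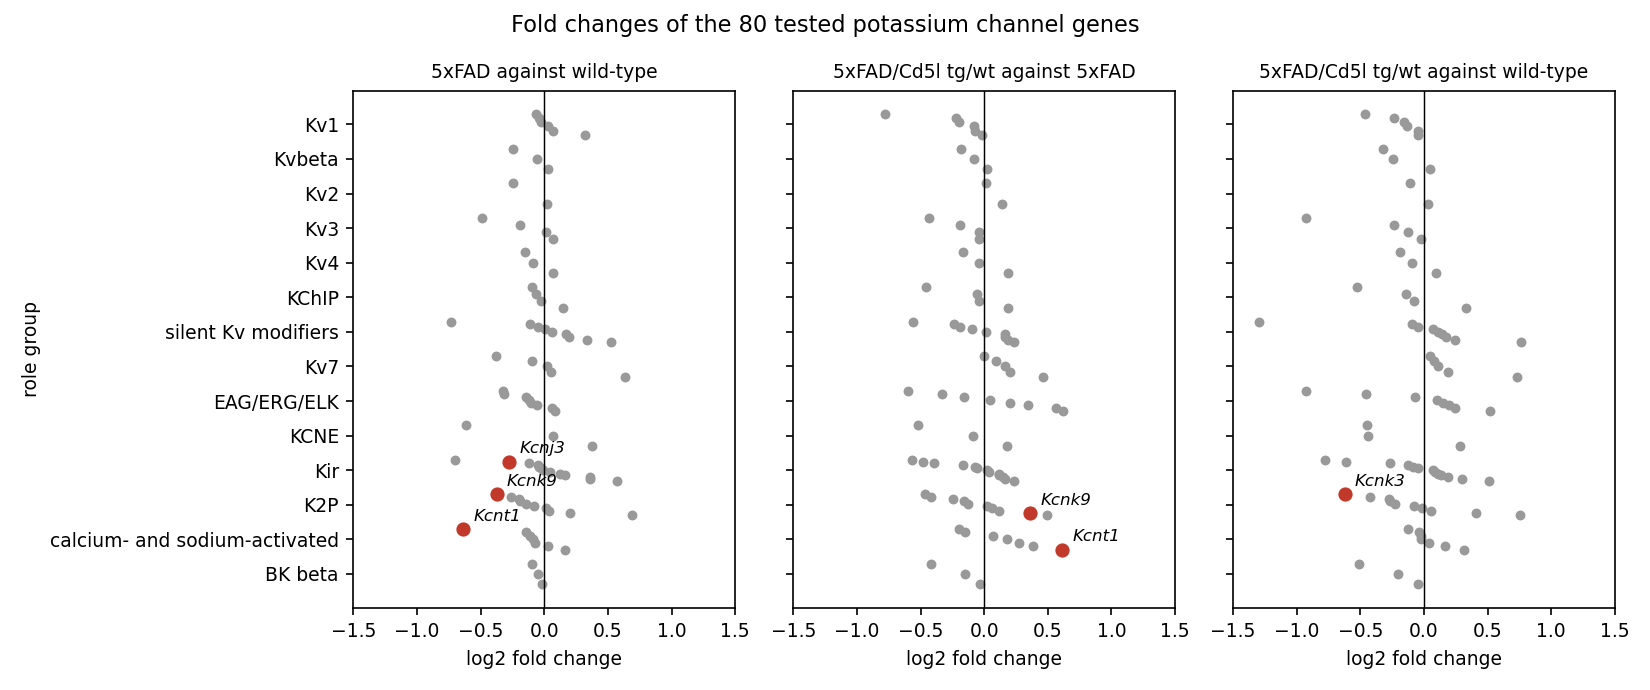
Log2 fold change (x axis) of each of the 80 tested potassium channel genes in the 3 comparisons, with role groups on the y axis and 1 point per gene. The red, named points passed at an adjusted p under 0.05, and the grey points did not.

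Kcnt1 encodes the sodium-activated potassium channel Slack, which opens when sodium enters during firing and adds to the slow hyperpolarization that follows. The gene lies on chromosome 2 at 25753746 to 25808285 (GRCm39, plus strand). Its level was 139, 139 and 151 CPM in wild-type, 91.3, 92.1 and 92.2 CPM in 5xFAD, and 130, 147 and 144 CPM in 5xFAD/Cd5l tg/wt libraries 1, 2 and 3. All 5xFAD libraries were thus lower than every library of the other genotypes, and the 5xFAD libraries differed from each other by less than 1 CPM. Kcnt1 fell by 0.64 ± 0.07 on the log2 scale in 5xFAD against wild-type (adjusted p = 0.000284), the 51st smallest p of 17575 genes. Kcnt1 was 0.61 ± 0.07 higher in 5xFAD/Cd5l tg/wt than in 5xFAD mice (adjusted p = 0.000493, the 45th smallest), a comparison that uses the same 5xFAD libraries. Between 5xFAD/Cd5l tg/wt and wild-type, 140 ± 9.04 and 143 ± 7.08 CPM, it did not pass (adjusted p = 0.929). Both calls of Kcnt1 held in all 21 alternative settings, with log2 fold changes from -0.65 to -0.58 and from 0.49 to 0.66. No other gene model of the table overlaps Kcnt1. The nuclear-retained RNAs moved in the same order as Kcnt1, with 9 of 10 lower in 5xFAD than in wild-type and 10 of 10 higher in 5xFAD/Cd5l tg/wt than in 5xFAD past the threshold. The endothelial and mural markers did so too, with 4 of 15 lower (median -0.53) and then 9 of 15 higher (median 0.66) past the threshold in these comparisons. The part of either set in the result was not tested.

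Other channels that open on intracellular calcium or sodium did not pass. Kcnt2, the close relative of Kcnt1 in sequence and function, was at 32.3 ± 1.76, 30.8 ± 4.25 and 40.2 ± 7.47 CPM in the 3 genotypes (5xFAD/Cd5l tg/wt against 5xFAD, 0.38 ± 0.14, adjusted p = 0.117). Its libraries 2 and 3 of 5xFAD/Cd5l tg/wt, at 45.5 and 43.3 CPM, were above all others, whereas library 1 was at 31.6 CPM. Without library 1 the difference was 0.53 (adjusted p = 0.0101), and without the 3 regionally distinct libraries 0.02 (adjusted p = 0.949). Kcnma1, the pore of the large-conductance calcium-activated BK channel, was at 274 ± 8.002, 248 ± 15.4 and 281 ± 32.7 CPM in the 3 genotypes. The difference between the amyloid genotypes was 0.18 ± 0.08 (adjusted p = 0.222). The small-conductance genes Kcnn1, Kcnn2 and Kcnn3, which give the medium after-hyperpolarization, were at 12.6 to 39.2 CPM in all libraries. The BK beta subunits Kcnmb1, Kcnmb2 and Kcnmb4, which tune the calcium sensitivity of the BK pore, did not pass in any of the 3 comparisons. Kcnmb1 lay between 0.673 and 1.47 CPM, Kcnmb2 between 3.30 and 4.77 CPM and Kcnmb4, the neuronal form, between 36.0 and 49.2 CPM. Kcnmb1 lies opposite to Kcnip1 in the same span, and the handling of strand is not given.

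Of 10 tested K2P leak channels, Kcnk9 and Kcnk3 passed. They encode TASK channels, which are closed by extracellular acid and by many neurotransmitter receptors. Kcnk9 (chromosome 15, 72372938 to 72418189, minus strand) was at 122, 109 and 125 CPM in wild-type, 88.2, 90.6 and 95.7 CPM in 5xFAD, and 121, 123 and 110 CPM in 5xFAD/Cd5l tg/wt libraries. As with Kcnt1, the 5xFAD libraries were the lowest and those of the other genotypes intermixed. Kcnk9 fell by 0.38 ± 0.08 in 5xFAD against wild-type (adjusted p = 0.0186) and was 0.36 ± 0.08 higher in 5xFAD/Cd5l tg/wt than in 5xFAD (adjusted p = 0.0164). The fall did not pass without wild-type library 1 (adjusted p = 0.0671) or 3 (0.0519) or without 5xFAD library 1 (0.104) or 2 (0.0906), and the rise did not pass without 5xFAD library 1 (0.0953) or 2 (0.0916) or 5xFAD/Cd5l tg/wt library 2 (0.0627). The sums of the nuclear-retained RNAs and of the endothelial and mural markers, both lowest in 5xFAD, also hold beside Kcnk9, and their part was not tested.

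Kcnk3 (chromosome 5, 30745514 to 30782615, plus strand) had another order of genotypes. Its level was 32.8, 27.2 and 40.5 CPM in wild-type, 30.2, 30.4 and 26.5 CPM in 5xFAD, and 23.2, 20.6 and 21.3 CPM in 5xFAD/Cd5l tg/wt libraries. Wild-type library 3 was the highest and the 5xFAD/Cd5l tg/wt libraries were the lowest, with no overlap between that genotype and the others. Kcnk3 fell by 0.62 ± 0.13 in 5xFAD/Cd5l tg/wt against wild-type (adjusted p = 0.0329), and the difference from 5xFAD was -0.42 ± 0.13 (adjusted p = 0.0806, 0.0281 without wild-type library 3, and 0.182 lacking the 3 regionally distinct libraries). The fall did not pass without wild-type library 1 (adjusted p = 0.0832) or 3 (0.0917), 5xFAD library 1 (0.0624) or 2 (0.0562), or 5xFAD/Cd5l tg/wt library 2 (0.117) or 3 (0.134), with the replicate number as a block (0.0519) or in a fit restricted to the 6 libraries compared (0.106). Without the libraries wild-type 3 and 5xFAD/Cd5l tg/wt 2 and 3, which stood apart in regional markers, it was -0.37 (adjusted p = 0.251). The lncRNA Gm9899 on the opposite strand overlaps Kcnk3, with 14.2 to 20.7 CPM across libraries, and the handling of strand is not given. Reads shared between Kcnk3 and its near relative Kcnk9 could also be assigned to either gene.

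The remaining K2P channels did not pass. Kcnk1 was at 91.9 ± 8.44, 92.9 ± 7.40 and 78.4 ± 3.06 CPM in the 3 genotypes (against 5xFAD, -0.25 ± 0.09, adjusted p = 0.115). The mechanosensitive channel Kcnk4 was 10.08 ± 1.077 CPM in 5xFAD and 14.2 ± 3.54 CPM in 5xFAD/Cd5l tg/wt, and its 5xFAD/Cd5l tg/wt libraries ran from 11.5 to 18.2 CPM. The mechanosensitive channel Kcnk2 lay between 53.6 and 84.8 CPM, with the lowest and the highest value both in 5xFAD/Cd5l tg/wt libraries. Kcnk6 and Kcnk13, linked to microglia and other myeloid cells, were chosen after their values were seen. Kcnk6 was at 4.42, 4.26 and 3.73 CPM in wild-type, 8.07, 5.84 and 6.16 CPM in 5xFAD, and 8.26, 6.002 and 6.71 CPM in 5xFAD/Cd5l tg/wt libraries. The wild-type libraries were all lower than those with the amyloid transgenes. The difference of 0.69 ± 0.19 for 5xFAD from wild-type did not pass (adjusted p = 0.0764), nor did that of 0.75 ± 0.19 between 5xFAD/Cd5l tg/wt and wild-type (0.0855). All 11 microglial markers rose in 5xFAD against wild-type and 10 of 11 in 5xFAD/Cd5l tg/wt against wild-type, and their part in the values of Kcnk6 was not tested. With DESeq2, Kcnk6 passed in both comparisons (adjusted p = 0.0447 and 0.0366), and the first also passed without 5xFAD/Cd5l tg/wt library 1 (0.0493). Kcnk13, which sets the resting potential of microglia, was at 11.5 ± 1.13, 13.2 ± 1.80 and 9.58 ± 2.43 CPM in the 3 genotypes.

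**Figure D3:**
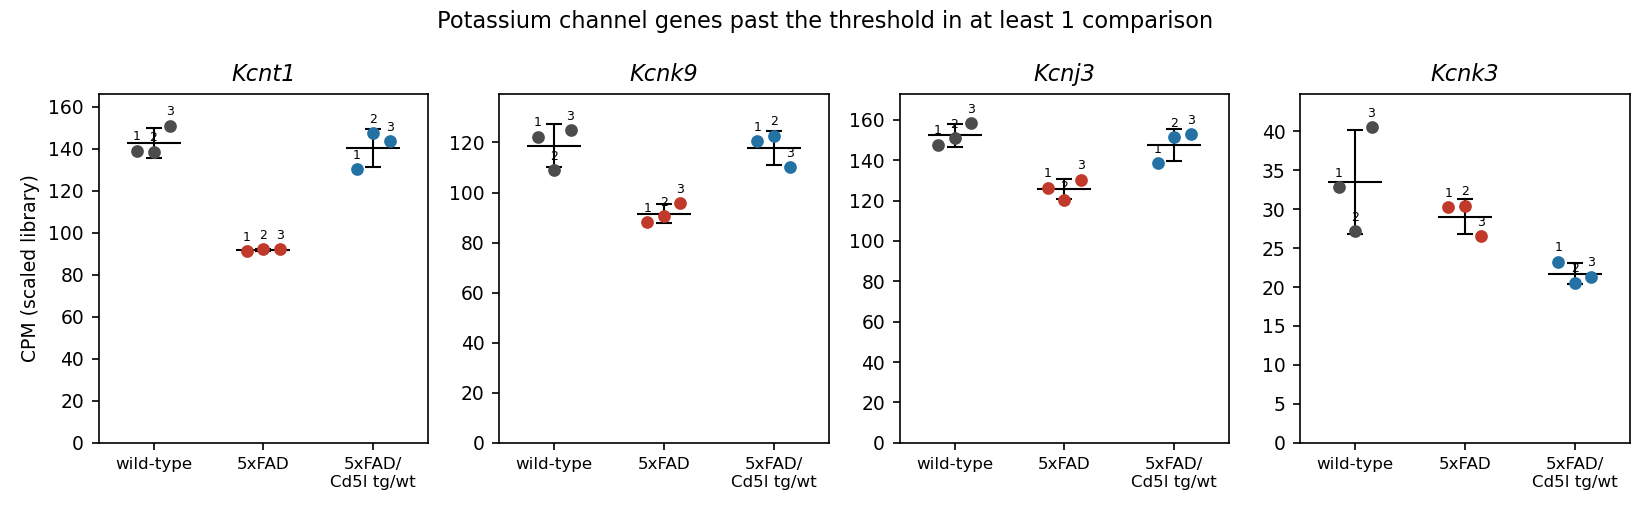
CPM of the 4 potassium channel genes that passed in at least 1 comparison, by genotype. Points are the libraries with their numbers, and bars are the mean ± SD of 3 libraries. The 5xFAD points of Kcnt1, Kcnk9 and Kcnj3 lie below those of the other genotypes, and the 5xFAD/Cd5l tg/wt points of Kcnk3 are its lowest.

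Among 13 tested inward rectifiers, Kcnj3 passed. It encodes a pore subunit of the G-protein-gated channels through which inhibitory receptors quiet forebrain neurons. Kcnj3 (chromosome 2, 55325982 to 55488157, GRCm39, plus strand) was at 148, 151 and 158 CPM in wild-type, 126, 120 and 130 CPM in 5xFAD, and 138, 151 and 153 CPM in 5xFAD/Cd5l tg/wt libraries. The 5xFAD libraries were again the lowest, as they were for the nuclear-retained RNAs (1971 to 2368 CPM against 4263 to 6541 CPM elsewhere) and the endothelial and mural markers (272 to 324 CPM against 392.05 to 477 CPM), whose part was not tested. Kcnj3 fell by 0.28 ± 0.07 in 5xFAD against wild-type (adjusted p = 0.0457), and the difference of 5xFAD/Cd5l tg/wt from 5xFAD was 0.23 ± 0.07 (adjusted p = 0.0667). The latter difference passed with DESeq2 (adjusted p = 0.0451) and without 5xFAD/Cd5l tg/wt library 1 (0.0256). Without the 3 regionally distinct libraries it was 0.12. The fall was at the edge of the threshold. Leaving out each of the 6 libraries compared in turn gave adjusted p = 0.0790 to 0.214, so the call was lost each time. It was also lost without 5xFAD/Cd5l tg/wt library 3 (0.0547), with the replicate number as a block (0.0684), RLE (0.0518) or upper-quartile scaling (0.0543), offsets for gene length (0.0584) or a filter of 1 CPM in 3 libraries (0.0526). The call held in 9 of 21 alternative settings. Without the 3 regionally distinct libraries the log2 fold change was -0.24. The promoter window of Kcnj3 is shown because it is the 1 of the 3 genes lower in 5xFAD with an entry in the RefSeq promoter table used here. It spans the annotated start, chr2:55435720-55436019 on the plus strand of GRCm38.p6, a different build from that of the counts. Capitals mark a GC box, GGGCGG, searched on both strands.
Kcnj3: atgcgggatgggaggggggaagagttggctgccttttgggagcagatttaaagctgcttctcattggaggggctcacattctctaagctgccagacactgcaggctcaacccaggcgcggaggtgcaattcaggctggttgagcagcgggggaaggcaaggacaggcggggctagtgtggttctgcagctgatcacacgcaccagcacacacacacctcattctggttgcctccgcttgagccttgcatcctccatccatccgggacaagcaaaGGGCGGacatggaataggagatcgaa
The window holds 1 GC box, has 57.7% G and C and has 10 CpG pairs. Of 32851 promoter windows of this length 35.7% hold the GC box, and of the 93 windows of the 68 potassium channel genes with an entry 48.4% do. The median share of G and C was 52.7% in all windows and 58% in those of the potassium channel genes. Its part in the GC box shares was not tested.

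The partners of Kcnj3 in the G-protein-gated channel did not pass. Kcnj9 was at 137 ± 3.32, 134 ± 2.30 and 150 ± 16.3 CPM in the 3 genotypes. Kcnj6 was at 20.8, 18.0 and 19.9 CPM in wild-type, 23.0, 27.2 and 24.9 CPM in 5xFAD, and 24.8, 25.8 and 21.6 CPM in 5xFAD/Cd5l tg/wt libraries. Its wild-type libraries were thus below all others, with a difference of 0.36 ± 0.11 in 5xFAD against wild-type that did not pass (adjusted p = 0.0971). Without the 3 regionally distinct libraries it was 0.38 (adjusted p = 0.05, just under the threshold before rounding). Kcnj5, a further partner that is sparse in brain, stayed at 0.790 to 3.795 CPM.

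Kcnj10 and Kcnj16 form the channel by which astrocytes clear potassium. Kcnj10 was at 217, 220 and 301 CPM in wild-type, 260, 285 and 258 CPM in 5xFAD, and 243, 175 and 193 CPM in 5xFAD/Cd5l tg/wt libraries. Wild-type library 3 was the highest, and 5xFAD/Cd5l tg/wt libraries 2 and 3 were the lowest. The difference of 5xFAD/Cd5l tg/wt from 5xFAD was -0.39 ± 0.13 and did not pass (adjusted p = 0.103). It passed with DESeq2 (adjusted p = 0.0366) and without wild-type library 3 (0.0358) or 5xFAD/Cd5l tg/wt library 1 (0.0143). Without the 3 regionally distinct libraries it was -0.16 (adjusted p = 0.265). In that same fit Kcnj10 was 0.30 ± 0.06 higher in 5xFAD than in wild-type (adjusted p = 0.00866), whereas in the fit of all libraries this comparison did not pass (adjusted p = 0.717). The 10 astrocyte markers summed to 4449 to 4939 CPM in wild-type, 5485 to 5617 CPM in 5xFAD and 5515 to 5808 CPM in 5xFAD/Cd5l tg/wt libraries. Gfap was the 1 marker of these that passed. Oligodendrocyte markers summed to 7511 to 8421 CPM in wild-type, 6792 to 7665.5 CPM in 5xFAD and 4793 to 7195 CPM in 5xFAD/Cd5l tg/wt libraries. Thalamic markers summed to 360, 367 and 625 CPM in wild-type and 431, 451 and 467 CPM in 5xFAD libraries. In 5xFAD/Cd5l tg/wt libraries they summed to 403, 209 and 299 CPM. The part of these sets was not tested. Kcnj16 lay between 28.1 and 38.0 CPM, with its highest value in wild-type library 3.

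Other inward rectifiers were lower in level. Kcnj2, a classical strong rectifier, was at 17.6, 23.7 and 15.004 CPM in wild-type and at 21.8 to 28.6 CPM in the 6 libraries with the amyloid transgenes. Against wild-type it had 0.36 ± 0.15 in 5xFAD (adjusted p = 0.253) and 0.51 ± 0.15 in 5xFAD/Cd5l tg/wt (adjusted p = 0.145). The latter difference was 0.71 without wild-type library 2 (adjusted p = 0.0205) and 0.38 without wild-type library 3 (adjusted p = 0.3905). Kcnj14 was at 3.95 ± 0.510, 2.41 ± 0.563 and 2.31 ± 0.511 CPM in the 3 genotypes, with all wild-type libraries above all others (5xFAD against wild-type, -0.71 ± 0.25, adjusted p = 0.167). Kcnj12, also a strong rectifier, was at 13.7, 10.3 and 23.1 CPM in wild-type, 14.8, 15.8 and 14.9 CPM in 5xFAD, and 10.7, 9.04 and 10.9 CPM in 5xFAD/Cd5l tg/wt libraries. Its 5xFAD libraries were above all 5xFAD/Cd5l tg/wt libraries, with -0.57 ± 0.23 (adjusted p = 0.164, 0.0281 without wild-type library 3, and 0.132 lacking the 3 regionally distinct libraries). Kcnj4 lay between 82.8 and 135 CPM, with its lowest value in wild-type library 3. Kcnj8 and Kcnj11 are the pores of the ATP-sensitive channels of pericytes and neurons. Kcnj8 lay between 2.83 and 4.63 CPM and Kcnj11 between 35.4 and 47.1 CPM. Their sulfonylurea-receptor partners Abcc9 and Abcc8 had -0.46 ± 0.14 and -0.59 ± 0.17 in 5xFAD against wild-type (adjusted p = 0.103 and 0.0980) and 0.39 ± 0.14 and 0.52 ± 0.17 in 5xFAD/Cd5l tg/wt against 5xFAD (0.113 and 0.0965). The endothelial and mural markers had medians of -0.53 and 0.66 in these comparisons, and their part in the values of Abcc9 was not tested. Kcnj13, a channel of the choroid plexus that lies within Gigyf2 on the opposite strand, was at 4.93 to 8.97 CPM.

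None of the Kv1 to Kv4 pore subunits passed, nor did their Kv beta or KChIP partners. In the Kv1 family, which holds axons and terminals near rest, Kcna1 was at 90.8 ± 20.4, 88.3 ± 8.46 and 77.2 ± 6.38 CPM and Kcna2 at 320 ± 41.0, 306 ± 7.96 and 291 ± 6.88 CPM in the 3 genotypes. The highest value of both was in wild-type library 3. Kcna5 was at 12.8, 12.2 and 8.57 CPM in 5xFAD and 9.32, 5.66 and 4.63 CPM in 5xFAD/Cd5l tg/wt libraries, a difference of -0.78 ± 0.26 that did not pass (adjusted p = 0.103). It passed with the replicate number as a block (adjusted p = 0.0328), with DESeq2 (0.0390), without a filter (0.000572) and without 5xFAD/Cd5l tg/wt library 1 (0.0114). Without a filter the SE of Kcna5 was 0.18, against 0.26 in the main fit, so that small p rests on a lower estimate of spread. Leaving out the 3 regionally distinct libraries, Kcna5 had -0.28 (adjusted p = 0.522). Kcnab3 had -0.32 ± 0.12 in 5xFAD/Cd5l tg/wt against wild-type (adjusted p = 0.304). Kcnab1 stood at 100 CPM in library 1 of 5xFAD/Cd5l tg/wt and at 135 to 163 CPM in the other libraries. Kcnb2, a somatic delayed rectifier, was at 32.2 ± 5.08, 27.0 ± 2.88 and 29.8 ± 2.24 CPM in the 3 genotypes.

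Kcng4, a silent subunit, had 17.7, 12.6 and 41.4 CPM in wild-type, 14.2, 16.5 and 11.98 CPM in 5xFAD, and 12.6, 5.73 and 10.7 CPM in 5xFAD/Cd5l tg/wt libraries. Wild-type library 3 was far above the rest. The difference of 5xFAD/Cd5l tg/wt from wild-type was -1.29 ± 0.38 (adjusted p = 0.145) and -0.64 without wild-type library 3 (adjusted p = 0.463). Without wild-type library 2 it passed (-1.60, adjusted p = 0.0394), and lacking the 3 regionally distinct libraries it was -0.27 (adjusted p = 0.651). In wild-type library 3 the granule-cell marker gene Cbln3 was at 192 CPM, against 18.5 and 2.98 CPM in wild-type libraries 1 and 2 and at most 4.83 CPM elsewhere. Of 14 tested cerebellar and hindbrain markers, 3 fell in 5xFAD/Cd5l tg/wt against wild-type, and their part in the values of Kcng4 was not tested. The 5 parvalbumin-interneuron markers summed to 909 to 1219 CPM in wild-type, 857 to 958 CPM in 5xFAD and 678 to 804 CPM in 5xFAD/Cd5l tg/wt libraries. Of these, 2 of 5 (Tac1 and Vwc2) were lower in 5xFAD/Cd5l tg/wt than in 5xFAD past the threshold. Pvalb itself, Syt2 and Cplx1 did not pass. Cplx1 alone was at 539 to 789 CPM and Pvalb at 34.2 to 130 CPM, so Cplx1 made up most of each sum. The part of these markers was not tested either. Kv3 channels allow fast repolarization and high firing rates, and are rich in cerebellum, brainstem and parvalbumin interneurons. Kcnc1 was also highest in wild-type library 3, at 297 CPM against 199 to 241 CPM elsewhere, whereas Kcnc2 stayed between 119 and 126 CPM in all 9 libraries. Kcnc4 had -0.19 ± 0.08 in 5xFAD/Cd5l tg/wt against 5xFAD (adjusted p = 0.198).

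**Figure D4:**
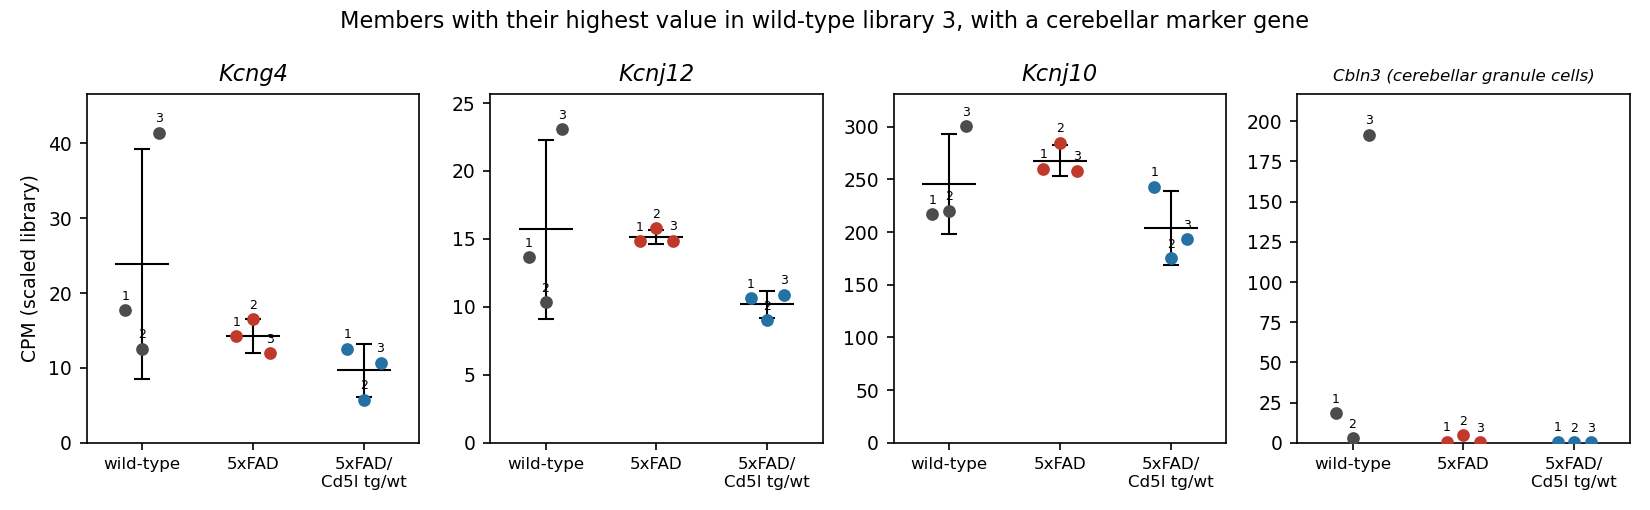
CPM by genotype of 3 of the 24 tested potassium channel genes whose highest value was in wild-type library 3, and of the cerebellar granule-cell gene Cbln3. Points are the libraries with their numbers, and bars are the mean ± SD of 3 libraries, left out for Cbln3. Wild-type library 3 reaches 41.4 CPM for Kcng4 and 192 CPM for Cbln3.

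Kv4 channels carry the dendritic A-type current together with KChIP proteins. Kcnd2 was at 137 ± 17.0, 123 ± 1.27 and 120 ± 10.3 CPM and Kcnd3 at 94.0 ± 11.4, 98.5 ± 7.01 and 88.0 ± 14.2 CPM in the 3 genotypes. Kcnip1, the KChIP of many interneurons, was at 32.7, 27.5 and 36.2 CPM in wild-type, 32.0, 28.5 and 31.6 CPM in 5xFAD, and 30.1, 18.6 and 18.5 CPM in 5xFAD/Cd5l tg/wt libraries. Only libraries 2 and 3 of 5xFAD/Cd5l tg/wt were low, and the difference of -0.52 ± 0.17 from wild-type did not pass (adjusted p = 0.199), but did without library 1 of that genotype (-0.79, 0.00276). In the fit lacking the 3 regionally distinct libraries, Kcnip1 had -0.0064 (adjusted p = 0.987). Kcnip2 was high in the same libraries, at 174 and 160 CPM, against 97.1 to 141 CPM in the other 7. Kcnf1 was at 123, 123 and 128 CPM in wild-type and at 146, 146 and 135 CPM in 5xFAD libraries, with no overlap of the genotypes and 0.19 ± 0.08 (adjusted p = 0.282). Its 5xFAD/Cd5l tg/wt libraries, at 105, 133 and 124 CPM, were below all 5xFAD libraries, with -0.24 ± 0.08 (adjusted p = 0.115). That difference was -0.46 (adjusted p = 0.0132) without the 3 regionally distinct libraries. Kcng1, also a silent partner of Kv2, had 28.4, 27.2 and 27.0 CPM in wild-type and 38.4, 34.7 and 31.1 CPM in 5xFAD libraries, with 0.33 ± 0.11 (adjusted p = 0.157).

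Kv7 subunits, which form the M-current, and the EAG, ERG and ELK channels did not pass in any of the 3 comparisons. Kcnq3 was at 209 ± 21.3, 196 ± 4.44 and 225 ± 32.1 CPM in the 3 genotypes. Kcnh7, an ERG channel of neurons, was at 121, 110 and 98.7 CPM in wild-type, 101, 106 and 91.7 CPM in 5xFAD, and 108, 136 and 133 CPM in 5xFAD/Cd5l tg/wt libraries. The difference between the amyloid genotypes was 0.34 ± 0.10 (adjusted p = 0.0724). It passed with DESeq2 (adjusted p = 0.0412), without a filter (0.00593) and without wild-type library 3 (0.0495) or 5xFAD/Cd5l tg/wt library 1 (0.0110). The SE without a filter was 0.088, lower than in the main fit. Without the 3 regionally distinct libraries Kcnh7 had 0.10 (adjusted p = 0.590). Kcnh2, the ERG channel best known from heart, was at 56.3, 50.7 and 63.8 CPM in wild-type and 52.7, 33.0 and 38.7 CPM in 5xFAD/Cd5l tg/wt libraries, with -0.46 ± 0.15 (adjusted p = 0.197) and -0.66 without library 1 of 5xFAD/Cd5l tg/wt (adjusted p = 0.00686). With the 3 regionally distinct libraries left out, Kcnh2 had -0.03 (adjusted p = 0.948). Of the small KCNE partners, Kcne2, a choroid plexus gene, had 1.13 CPM in library 1 of 5xFAD/Cd5l tg/wt and 2.97 to 5.29 CPM in the other libraries. Kcne1l and Kcne4 lay between 3.84 and 8.86 CPM and between 1.13 and 3.28 CPM.

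Many subunits had their extreme values in the same few libraries. Wild-type library 3 held the highest value of 24 of the 80 tested subunits (30%, against 16.4% of all tested genes) and 5xFAD/Cd5l tg/wt library 2 that of 19 (23.8%, against 16.1%). The lowest value was most often in 5xFAD/Cd5l tg/wt library 1, for 16 subunits (20%, against 12.4% of all tested genes). All 93 subunits together took 5485 to 6156 CPM of a library, with ranges of 5852 to 6156 in wild-type, 5496 to 5865 in 5xFAD and 5485 to 6057 in 5xFAD/Cd5l tg/wt.

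**Figure D5:**
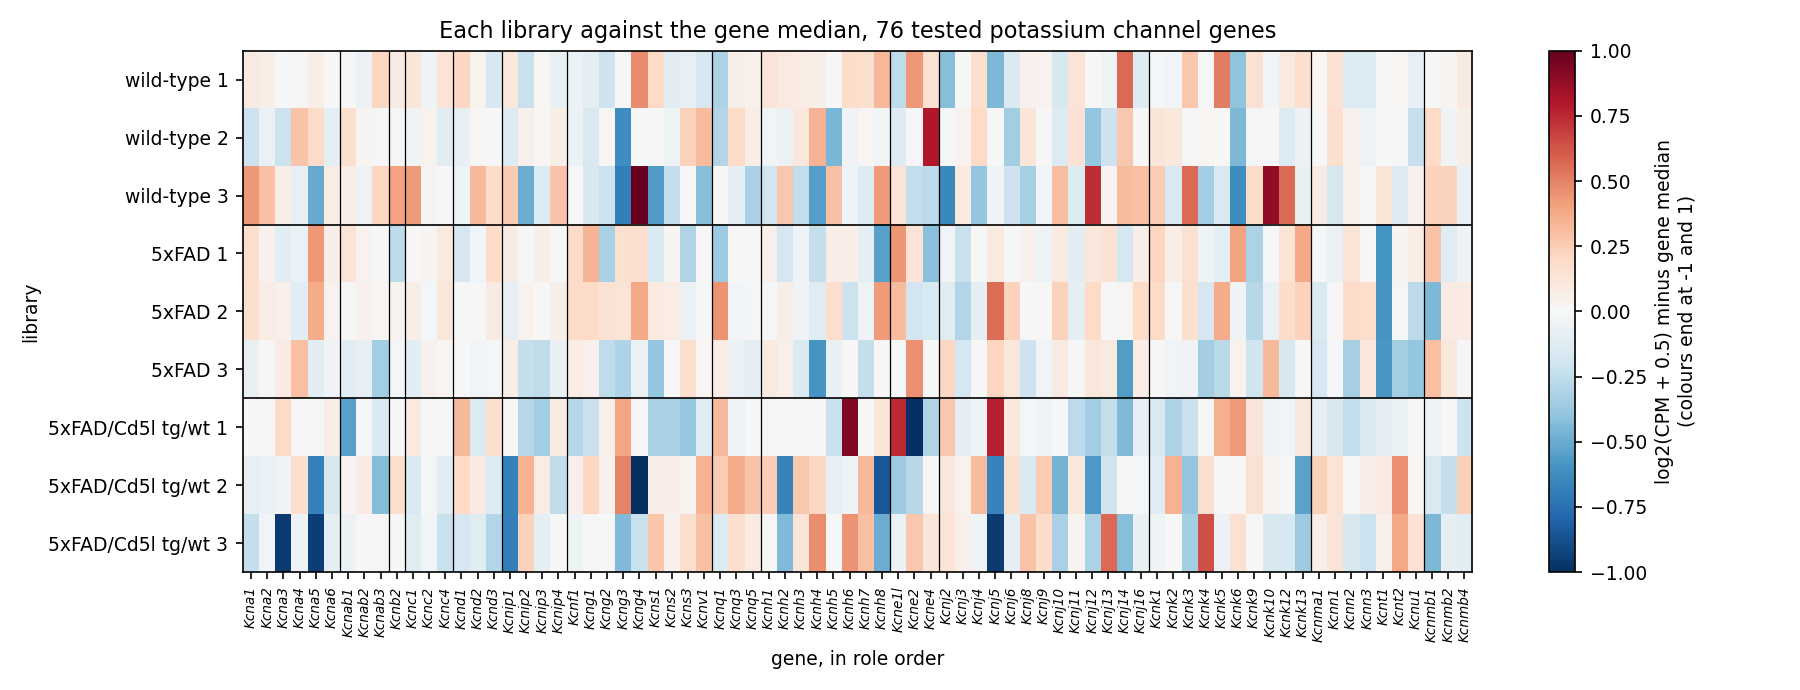
Each library (y axis) against the median of 9 libraries for 76 tested potassium channel genes (x axis, in role order), as log2(CPM + 0.5) minus the gene's median, with colours that end at -1 and 1. Kcnt1 is low in all 5xFAD libraries, and Kcng4 is high in wild-type library 3.

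The 13 subunits removed by the filter were barely detected. Kcna7, Kcnj1 and Kcnk18 had 0 counts in 143706257 counts over all libraries, which allows a level of up to 0.0209 CPM from 3 counts, for counting error only. Kcnk16, Kcnmb3, Kcne1, Kcnj15, Kcnk7, Kcna10, Kcne3 and Kcnv2 had 1, 2, 4, 5, 8, 13, 17 and 21 counts in all. All 4 counts of Kcne1 were in 5xFAD library 1. Kcnn4, the intermediate-conductance calcium-activated channel of blood cells and microglia, had 41 counts in 8 libraries, with at most 0.666 CPM. Kcnk15 had 51 counts, with 1.94 CPM in wild-type library 3 and at most 0.449 CPM in any other.

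Other genes of potassium handling gave 0 calls in each of the 3 comparisons with edgeR's quasi-likelihood test, among 44 tested of 46 listed. The list held proteins that cluster or anchor these channels, HCN channels, sodium-potassium pump subunits and potassium-chloride cotransporters. Of all tested genes 3.5%, 6.23% and 1.58% passed in the comparisons as ordered above. At an unadjusted p under 0.05 the counts were 10, 11 and 8 of 44, beside 2861, 3914 and 2177 of 17575 tested genes. The smallest adjusted p belonged to Sptbn4, which anchors Kv7 and sodium channels at the axon initial segment, with 0.28 ± 0.08 in 5xFAD/Cd5l tg/wt against 5xFAD (adjusted p = 0.0548). Cntn2, which clusters Kv1 channels beside the node of Ranvier, had -0.34 ± 0.09 in 5xFAD against wild-type (adjusted p = 0.0581). Of 35 tested genes with Scn, Cacna, Cacnb or Cacng symbols, 0, 2 and 0 passed in these comparisons (3.5%, 6.23% and 1.58% of all tested genes). They were chosen by symbol alone, and a Cacng symbol does not by itself mark a subunit of a voltage-gated calcium channel. An unadjusted p under 0.05 was found for 3, 9 and 9 of the 35, beside the counts of all tested genes just given. Those that passed were Cacna1d, which rose by 0.56 ± 0.10 (adjusted p = 0.00773), and Cacng4, which fell by 0.35 ± 0.10 (adjusted p = 0.0487) in 5xFAD/Cd5l tg/wt against 5xFAD.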

How the data were processed

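The authors deposited 1 table of read counts per gene for 9 libraries, unnormalized, with symbols, GRCm39 coordinates, biotypes and lengths. The build comes from the submitters' processing notes, and the sources used here do not give the aligner, counter, or handling of strand and of reads with several matches. All values were whole numbers. Low counts were filtered with filterByExpr (at least 10 counts, 15 in total), which cost a library up to 0.161% of its counts, and libraries were scaled by TMM (factors 0.987 to 1.018). A quasi-likelihood model with a mean for each genotype was fitted to all libraries in edgeR 4.0.16 under R 4.3.3 (limma 3.58.1 for voom), with Benjamini-Hochberg adjustment over 17575 genes. The SE is the log2 fold change divided by the square root of F. The test was tried on simulated counts. Named genes were all that passed, the 10 with the highest level per kilobase, the 2 with the smallest p in each role group and others chosen after their values were seen. Some named items are counted among the members but not reported here by name. The members, lists and tests were chosen with earlier results of these data known. Alternatives were 3 other scalings, 2 other filters, DESeq2 1.42.0, limma-voom, 6-library fits, the replicate number as a block, offsets for gene length, another threshold, and leaving out libraries. Figures used matplotlib 3.10.9. Comparisons were not paired, because no label says that the replicate number marks a litter or batch. Correlations of deviations were -0.119 to 0.17 between same-numbered libraries and -0.188 to 0.155 between others. The largest, 0.17, was between library 2 of wild-type and library 2 of 5xFAD/Cd5l tg/wt.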

Additional observations from a re-analysis of the deposited data

How the results depend on the processing

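The 3 counts of potassium channel genes that passed (3 for 5xFAD from wild-type, then 2 and 1 for 5xFAD/Cd5l tg/wt from 5xFAD and from wild-type) were small, and 31 of 63 recounts in 21 alternatives were more than 1.5 times apart from them. The cause was not tested. Without a filter the counts were 6, 14 and 12, and at an adjusted p under 0.1 they were 5, 5 and 3. The fit without a filter estimated the spread of single genes differently. Its SE was 0.18 against 0.26 in the main fit for Kcna5 (5xFAD/Cd5l tg/wt against 5xFAD). For Kcnk6 (5xFAD against wild-type) it was 0.22 against 0.19. Its small p-values are thus no firmer than those of the main fit. DESeq2 gave 7 and 2 in the comparisons with 5xFAD/Cd5l tg/wt, and fits of only the 6 libraries compared gave 5 and 0 there (13 genes at an unadjusted p under 0.05 beside the 0). With the replicate number as a block the last of these counts was 0, with 16 genes at an unadjusted p under 0.05. Correlations of deviations between same-numbered libraries ran from -0.119 to 0.17, and between others from -0.188 to 0.155. Leaving out the libraries apart in regional markers (wild-type 3, and 2 and 3 of 5xFAD/Cd5l tg/wt), the counts were 5, 6 and 2. There Kcnab1 (-0.57 and -0.62) and Kcne2 (-1.89 and -1.97) were lower in 5xFAD/Cd5l tg/wt against 5xFAD and wild-type. Each value came from 1 library, the lowest in striatal and choroid plexus markers, assumed to vary like the others. Leaving out 1 library at a time gave 1 to 4, 1 to 15 and 0 to 5. The 15 came without 5xFAD/Cd5l tg/wt library 1 (9 rose and 6 fell), and 7 passed without wild-type library 3. The share of all genes that passed in each alternative is not set beside these recounts. They therefore show nothing particular to potassium channel genes. Where the last count was 0, 10 to 17 genes had an unadjusted p under 0.05. Kcnt1 passed in both comparisons that include 5xFAD in all 21 alternatives, although the looser threshold of 0.1 could not have lost these calls. Among 44 single-gene differences with an unadjusted p under 0.05, 3 of 924 values changed sign, all without the 3 libraries: Kcnma1 (-0.0060, 5xFAD/Cd5l tg/wt against 5xFAD), Kcnt2 (-0.0803) and Kcnk4 (-0.0155, both against wild-type). With 14575416 to 17865150 counts per library, members under 1 CPM rest on few counts.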
